A study of Mus musculus with 12 samples.

Results

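The genes followed here are 10 genes of heart muscle, measured on 12 yolk sac arrays: Myl7, Myl4, Tnnt2, Tnnc1, Tnni1, Myh6, Myh7, Actc1 and Actn2, which encode parts of the contractile apparatus, and Nkx2-5, a transcription factor of the early heart. They were selected on measured values, because they stood high on 1 array, that of wild-type E8.5 replicate 2. Their levels on that array are therefore described with no test. All 10 had probes, 15 of the 41174 probes for transcripts on the array. For 9 members a probe passed the filter on dim signal, out of 13892 genes tested, and Nkx2-5 did not pass.

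The study compared yolk sacs of wild-type embryos with those of Baf250a/Arid1a V1068G/V1068G embryos, here called mutant, which are homozygous for a point change in ARID1A (BAF250A), which binds DNA as part of SWI/SNF chromatin remodelling complexes. Yolk sacs were dissected at E8.5 and at E9.5 (days of embryonic development) from embryos on the CD1 background, with 3 biological replicates of each of the 4 groups. Yolk sac RNA was labelled with Cy5, and RNA of whole neonatal wild-type mice of mixed 129Sv and C57BL/6 background was labelled with Cy3 and hybridised to every array as the common reference. Dyes were not swapped, and whether each replicate was 1 yolk sac or a pool is not given in the labels, so p-values measure the spread between these 12 samples. Every value is a log2 ratio of yolk sac over reference. A negative value means less signal than in the whole newborn, which has a heart and skeletal muscle, and ratios are compared between arrays, not between genes.

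Heart muscle contracts when myosin filaments pull on actin filaments within the sarcomere, and troponin on the actin filament makes this depend on calcium. In the mouse embryo the first heart muscle forms beside the yolk sac at about the stage of the earlier samples, and the embryonic heart tube expresses both atrial and ventricular forms of the myosin chains. The yolk sac itself consists of visceral endoderm, mesoderm, vessels and blood, and is not a source of sarcomeres. Its mesoderm does make smooth muscle genes.

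The labelled tissue was checked against its markers. All 14 visceral endoderm markers and all 9 primitive erythroid markers were well above background in Cy5 on all 12 arrays. Ttr, a transport protein made by visceral endoderm, ranged from a log2 ratio of 1.28 to 2.09, with its lowest value on wild-type E8.5 replicate 2. Between 46.7% and 50.1% of probes were well above background in Cy5. Skeletal muscle genes were on the same side of that threshold in 22 of 25 cases on all 12 arrays, with log2 ratios from -5.98 to -1.51, so a Cy5 flag alone does not set the members apart from muscle genes of the newborn reference. A placental trophoblast list had a mean log2 ratio, centred on each gene's mean over the arrays, of -0.65, -0.65 and -0.36 in wild-type E8.5, and of 1.41, 1.27 and 1.37 on replicate 3 of the other 3 groups. Arid1a probes do not read the point change and so do not check the genotype. Arid1a differed between mutant and wild type by 0.09 ± 0.07 at E8.5 without replicate 2 (limma, adjusted p = 0.712) and by 0.16 ± 0.06 at E9.5 (adjusted p = 0.300).

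Of the members with 1 RefSeq promoter entry or more (all 10, with 13 entries in build GRCm38.p6), 2 held a CArG box, the binding motif of serum response factor, in the 250 bases upstream of the start. The box was found in 1.47% of 32851 promoter entries over the same length; its pattern reads the same on both strands. The last 120 bases before the start are shown for those 2 genes, Myl7 and Actc1, with the box in capitals. A match is a description of the letters and not of a bound site.
Myl7, chr11:5898783-5898902, minus strand: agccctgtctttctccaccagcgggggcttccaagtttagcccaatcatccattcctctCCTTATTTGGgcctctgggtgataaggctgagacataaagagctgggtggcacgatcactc
Actc1, chr2:114052876-114052995, minus strand: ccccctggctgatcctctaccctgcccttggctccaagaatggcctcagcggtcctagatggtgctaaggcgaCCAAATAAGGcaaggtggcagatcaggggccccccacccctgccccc
The boxes began 61 bases upstream of the start in Myl7 and 47 bases upstream in Actc1.

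Among the light chains, Myl7, the regulatory light chain of atrial and early embryonic heart muscle, differed most between arrays. In wild-type E8.5 its log2 ratio was -2.50 in replicate 1, 0.01 in replicate 2 and -1.47 in replicate 3. In mutant E8.5 it was -2.65, -2.74 and -2.58. Both groups at E9.5 lay lower, the wild type at -3.08, -3.04 and -3.03 and the mutant at -3.14, -2.94 and -2.93. Replicate 2 of wild-type E8.5 thus reached the level of the newborn reference, replicate 3 was the second highest of the 12 arrays, and all 3 wild-type E8.5 arrays lay above all 9 others.

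The 3 arrays with the highest Myl7 ratios also had the 3 highest raw signals. Its Cy5 signal above local background was 139, 888 and 344 intensity units in wild-type E8.5, 115, 81.8 and 108 in mutant E8.5, 82.4, 71.0 and 82.5 in wild-type E9.5, and 76.4, 64.3 and 72.0 in mutant E9.5. The Cy3 signal of the reference for the same probe stayed between 877 and 1092 on all 12 arrays. The spread of the Myl7 ratio was therefore a spread of the yolk sac channel.

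**Figure D1:**
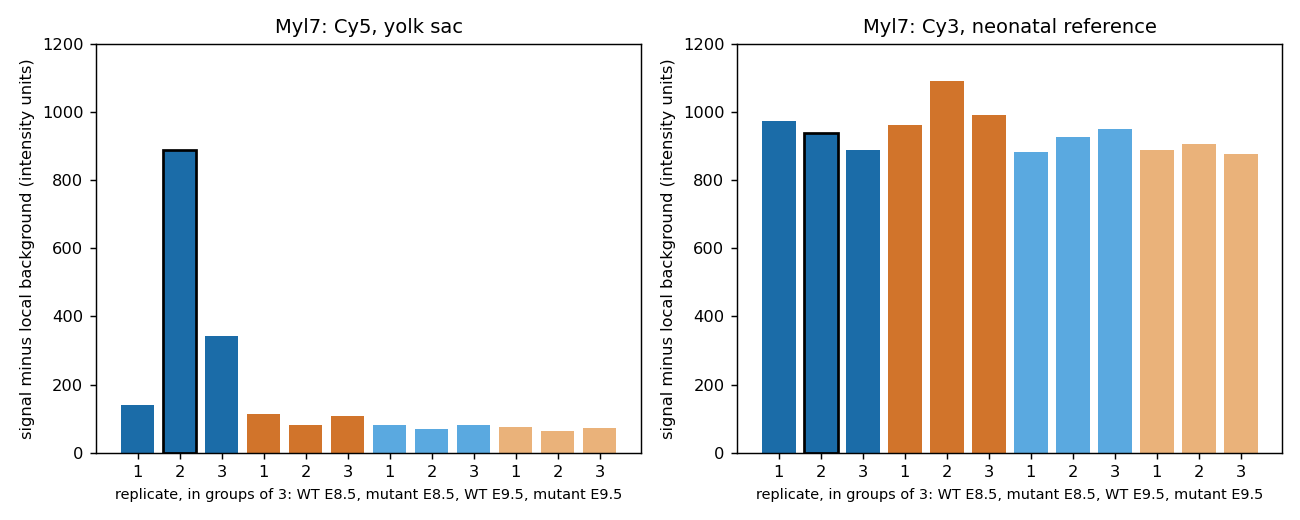
Signal minus local background (intensity units, linear axis from 0) of the Myl7 probe on each of the 12 arrays, in Cy5 for the yolk sac sample (left) and in Cy3 for the neonatal reference (right); colours mark the 4 groups and the black outline marks wild-type E8.5 replicate 2. Cy5 stood at 888 on that array and at 344 on replicate 3, and at 139 or below on the other 10 arrays, while Cy3 stayed between 877 and 1092.

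Myl4, the essential light chain of atrial and embryonic muscle, had log2 ratios of -3.07, -2.32 and -3.01 in wild-type E8.5. The other 9 arrays lay between -3.20 and -2.88. Only replicate 2 stood apart, with 241 Cy5 units against 130 to 175 on the 11 other arrays. A second Myl4 probe read -2.40 on replicate 2 and -3.16 to -2.98 elsewhere.

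Of the troponins, Tnnt2, the cardiac subunit that ties the complex to tropomyosin, read -2.75, -2.14 and -2.62 in wild-type E8.5 and -2.79, -2.57 and -2.59 in mutant E8.5. At E9.5 it read -3.02, -2.80 and -2.95 in the wild type and -2.96, -2.86 and -2.84 in the mutant. Replicate 2 of wild-type E8.5 was the highest, and the 2 other wild-type E8.5 arrays overlapped with the mutant ones. A second Tnnt2 probe failed the background criterion on each of the 12 arrays, so only 1 Tnnt2 probe could be read.

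Tnnc1, the calcium-binding subunit of slow and cardiac muscle, read -2.38, -2.13 and -2.59 in wild-type E8.5, -2.47, -2.60 and -2.44 in mutant E8.5, -2.78, -2.61 and -2.75 in wild-type E9.5, and -2.66, -2.34 and -2.43 in mutant E9.5. Its raw Cy5 signal was higher on replicate 1 (102 units) than on replicate 2 (92.8 units), so its first place rested on the ratio. Tnni1, the slow-muscle inhibitory subunit that the embryonic heart also uses, read -1.54, -1.25 and -1.51 in wild-type E8.5, -1.60, -1.67 and -1.71 in mutant E8.5, -1.62, -1.55 and -1.64 in wild-type E9.5, and -1.98, -1.88 and -1.71 in mutant E9.5. The lowest 2 values were mutant E9.5 replicates 1 and 2, and replicate 2 of wild-type E8.5 was the highest.

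Of the heavy chains, Myh6, the alpha chain that prevails in atria, had log2 ratios of -1.50, -0.74 and -1.19 in wild-type E8.5, -1.65, -1.36 and -1.49 in mutant E8.5, -1.65, -1.52 and -1.55 in wild-type E9.5, and -1.59, -1.53 and -1.46 in mutant E9.5. It was dim: the Cy5 signal was 45.6 units on replicate 2, 28.1 units on replicate 3 and between 5.98 and 20.7 units on the other 10 arrays, and on mutant E9.5 replicate 2 it was not well above background. With the offset of 50 units added to both channels, ratios of so dim a spot are compressed.

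Myh7, the beta chain that prevails in embryonic ventricles and slow muscle, read -3.64, -2.63 and -3.65 in wild-type E8.5 and -3.54, -3.25 and -3.40 in mutant E8.5. At E9.5 it read -3.76, -3.45 and -3.72 in the wild type and -3.84, -3.57 and -3.58 in the mutant. Replicate 2 stood apart with 1739 Cy5 units, the 11 other arrays holding 992 to 1259 units. Myh6 and Myh7 are close relatives in neighbouring genes, and cross-hybridisation between their probes was not tested. Second probes of both genes were also highest on replicate 2, at -0.49 for Myh6 and -3.02 for Myh7.

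Of the actin filament and the Z disc, Actc1, the cardiac alpha actin, read -2.68, -2.26 and -2.63 in wild-type E8.5, -2.69, -2.80 and -2.69 in mutant E8.5, -2.71, -2.66 and -2.39 in wild-type E9.5, and -2.38, -2.71 and -2.59 in mutant E9.5. Replicate 2 exceeded the highest other array, mutant E9.5 replicate 1, by 0.11. Actn2, the actinin that cross-links actin at the Z disc, lay between -4.01 and -3.79 on 11 arrays and at -3.70 on replicate 2. Its raw Cy5 signal was lowest on that array, at 41.3 units against 43.1 to 55.0 units on the others.

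Nkx2-5, the one regulator among the 10, was well above background in Cy5 on wild-type E8.5 replicate 2 and on mutant E8.5 replicate 1 alone, with 17.1 and 8.73 units. Its log2 ratio was 0.17 on the former and between -0.22 and -0.02 on the 11 other arrays. No fold is given, since the other 10 arrays hold no measured level.

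**Figure D2:**
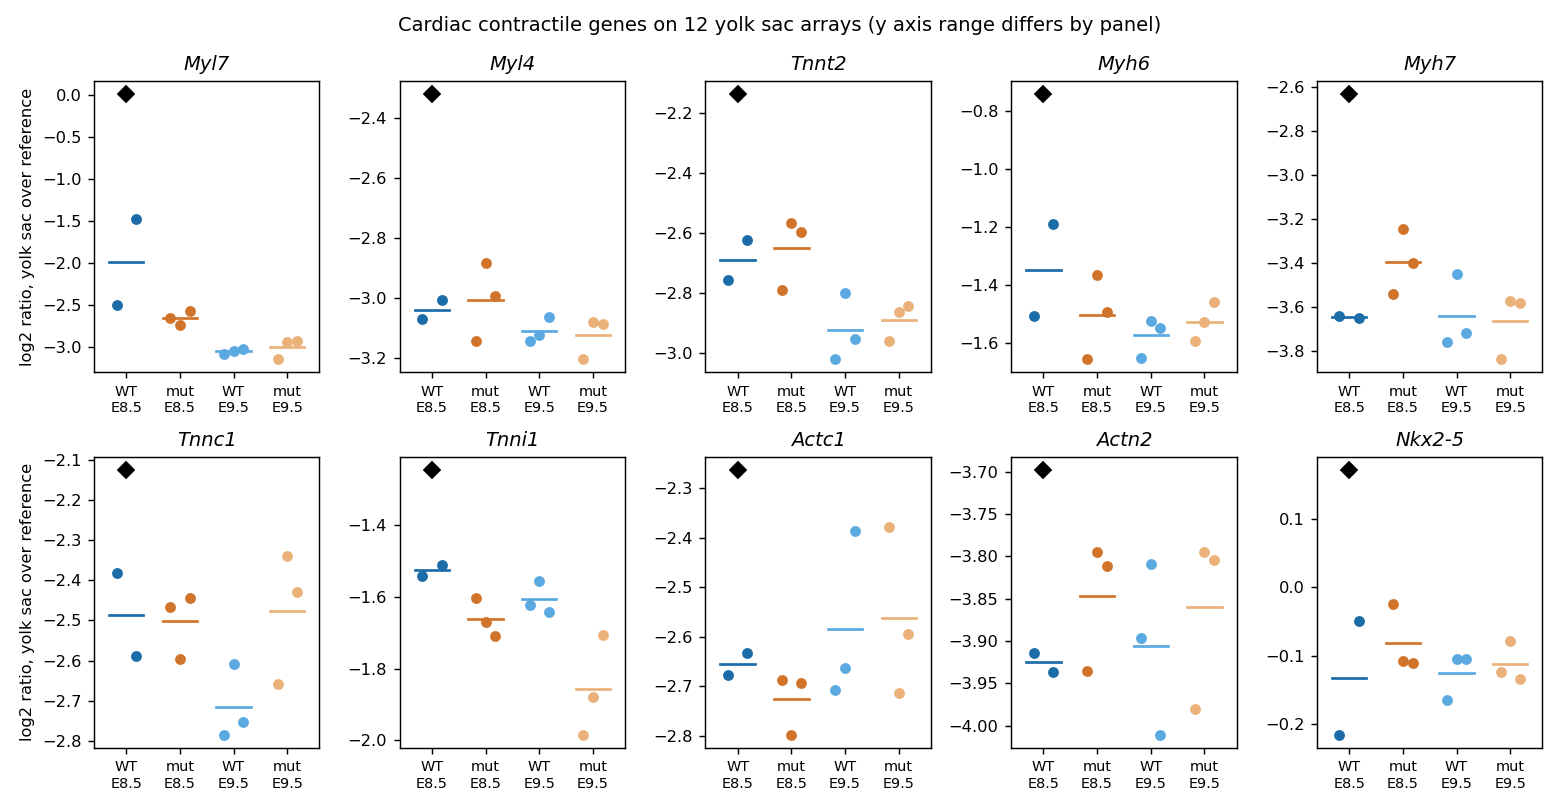
Log2 ratio of yolk sac over reference for each of the 10 genes on the 12 arrays, by group (WT, wild type; mut, mutant); points are arrays, the black diamond is wild-type E8.5 replicate 2, and bars are group means without it (n = 2 in wild-type E8.5, n = 3 elsewhere). The diamond is the highest point in all 10 panels, and the y axis differs by panel.

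On wild-type E8.5 replicate 2 all 9 measured members were highest of the 12 arrays, which was also true of 18.9% of all 13895 genes measured. Since the members were picked for this, nothing is read from that share. Above the mean of replicates 1 and 3, replicate 2 was higher by 2.00 for Myl7, 1.01 for Myh7, 0.72 for Myl4, 0.60 for Myh6, 0.55 for Tnnt2, 0.39 for Actc1, 0.36 for Tnnc1, 0.28 for Tnni1 and 0.23 for Actn2. The median over the 9 was 0.55 and that over all genes was 0.02.

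The members were set beside 22 measured skeletal muscle genes, whose products include the fast troponins and myosins. Those 22 also lay higher on replicate 2, by 0.04 to 0.42 with a median of 0.25. Myl7, Myh7, Myl4, Myh6 and Tnnt2 exceeded the highest of them, whereas Actc1, Tnnc1, Tnni1 and Actn2 lay within their range. The same 5 members had their highest raw Cy5 signal of the 12 arrays on replicate 2, and the other 4 did not. That signal is part of the ratio and is no separate support. Since the members were picked for their level on this array, nothing is read from the contrast with skeletal muscle genes. The whole set of 1964 other genes with a mean log2 ratio below -1 had a median of 0.15 on this measure.

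The values moved with the scaling. With each array centred on its median in place of loess, the median over all genes shifted to -0.16 and the skeletal muscle median to -0.10, and Actn2 turned to -0.06. Myl7 then stood at 1.77, Myh7 at 0.63, Myh6 at 0.44, Myl4 at 0.43 and Tnnt2 at 0.26, and again 5 members exceeded the highest skeletal muscle gene. With the scanner software's processed signals, Myh6 stood at 1.74 and Myl7 at 2.18. With those signals, and with the Cy5 channel alone, 8 of the 9 members were highest on replicate 2 and Actn2 was not. All settings use the same array, for which the members were picked, so they are no separate test.

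**Figure D3:**
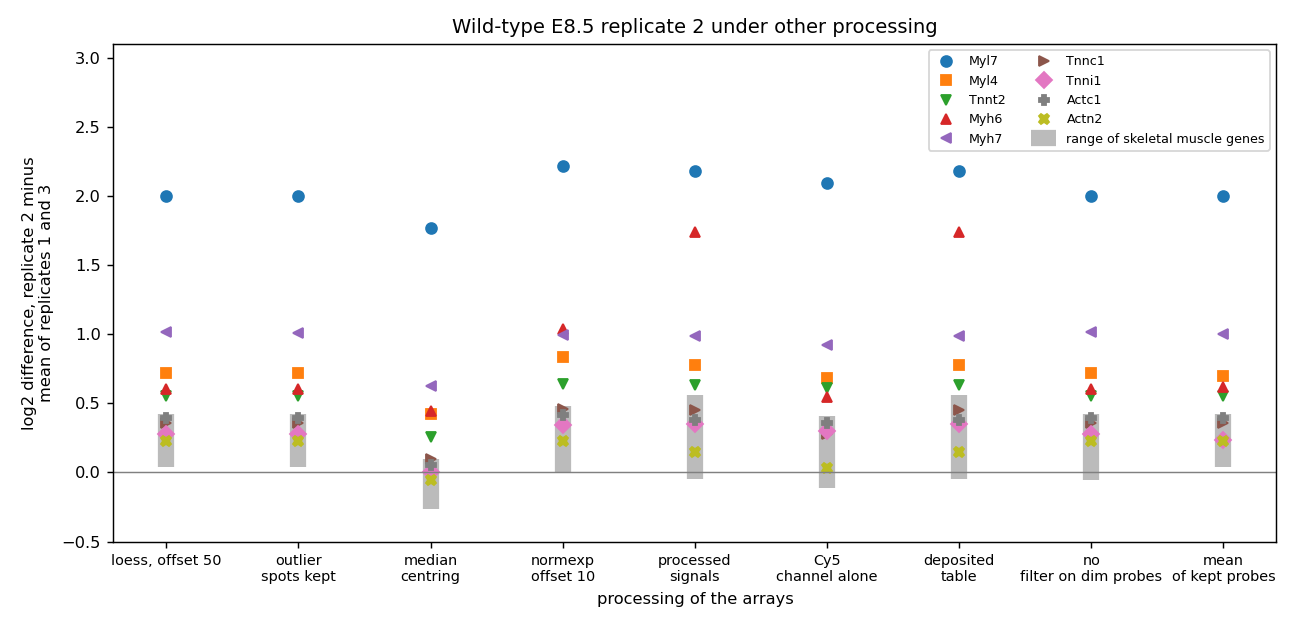
Difference in log2 ratio (log2 Cy5 intensity for the Cy5 channel alone) of wild-type E8.5 replicate 2 from the mean of replicates 1 and 3 for the 9 measured members, under the main processing (left) and 8 others; grey bars span the measured skeletal muscle genes (22, or 25 without the filter). In each of the 9 columns 5 members lie above the grey bar, Myl7 is highest, and Actn2 lies below 0 under median centring.

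Markers of tissues of the embryo proper moved with the members on this array. Hes5, a Notch target of neural progenitors, was 1.52 above the mean of replicates 1 and 3, Tcf15, a factor of somites, 1.16, and Aldh1a2, the retinoic acid synthase of somites and other mesoderm, 1.05. Of the neural list 6 of 8 measured genes, and of the somite, tail bud and limb list 7 of 9, were highest on replicate 2. Without the filter, 14 of 30 neural genes were well above background on replicate 2 and 6 to 9 on each of the other 11 arrays, and Sox2, Pax6, Otx2 and Zic1 passed on replicate 2 alone. Members that were highest there by at least 2-fold over every other array numbered 1, Myl7, among 5 such genes in all (0.036% of genes measured); the others were Hes5, Rgma, Aldh1a2 and Tcf15. What part other tissue in the dissected sample has in the members' level was not tested.

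Heart genes outside the members had smaller median differences on replicate 2, though single genes of these lists lay above several members. Since the members were picked for their level there, nothing is read from that contrast. Of 23 measured sarcomere genes of the heart 12 were highest there, with a median difference of 0.20, and the largest values were 0.81 for Ankrd1, a Z-disc and nuclear protein, 0.64 for Synpo2l and 0.54 for Unc45b, a myosin chaperone. Of 18 genes for excitation, calcium handling and secreted peptides 10 were highest there, with a median of 0.15; Bves stood at 0.63, Gjc1, a connexin of the early heart, at 0.59 and Nppa, the atrial natriuretic peptide, at 0.43. Of 13 cardiac transcription regulators 5 were highest there, with a median of 0.09. Tbx1 stood at 0.67 and Hey1 at 0.36. Some genes of these lists went the other way, the lowest of each being Mybpc3 at -0.42, Gja5 at -0.65 and Tbx2 at -0.22. Without the filter, 22 of 27 of the sarcomere genes were well above background on replicate 2 and 22 to 24 on each other array. For excitation, calcium and secreted genes the counts were 15 of 27 and 16 to 19. For regulators they were 13 of 21 and 11 to 16. Genes of endoderm, blood and vessels lay elsewhere: 1 of 14 visceral endoderm genes, 0 of 9 primitive erythroid genes and 0 of 8 endothelial genes were highest on replicate 2, with medians of -0.19, -0.09 and 0.00. Of smooth muscle genes, which yolk sac mesoderm also makes, 3 of 11 were highest on replicate 2, as were 18.9% of all genes. All 11 lay above the mean of replicates 1 and 3, by 0.04 to 0.58 with a median of 0.16. The 1964 other genes with a mean log2 ratio below -1 had a median of 0.15, close to those of several lists here. In bulk RNA, fewer cells of a type and less RNA per cell cannot be told apart.

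**Figure D4:**
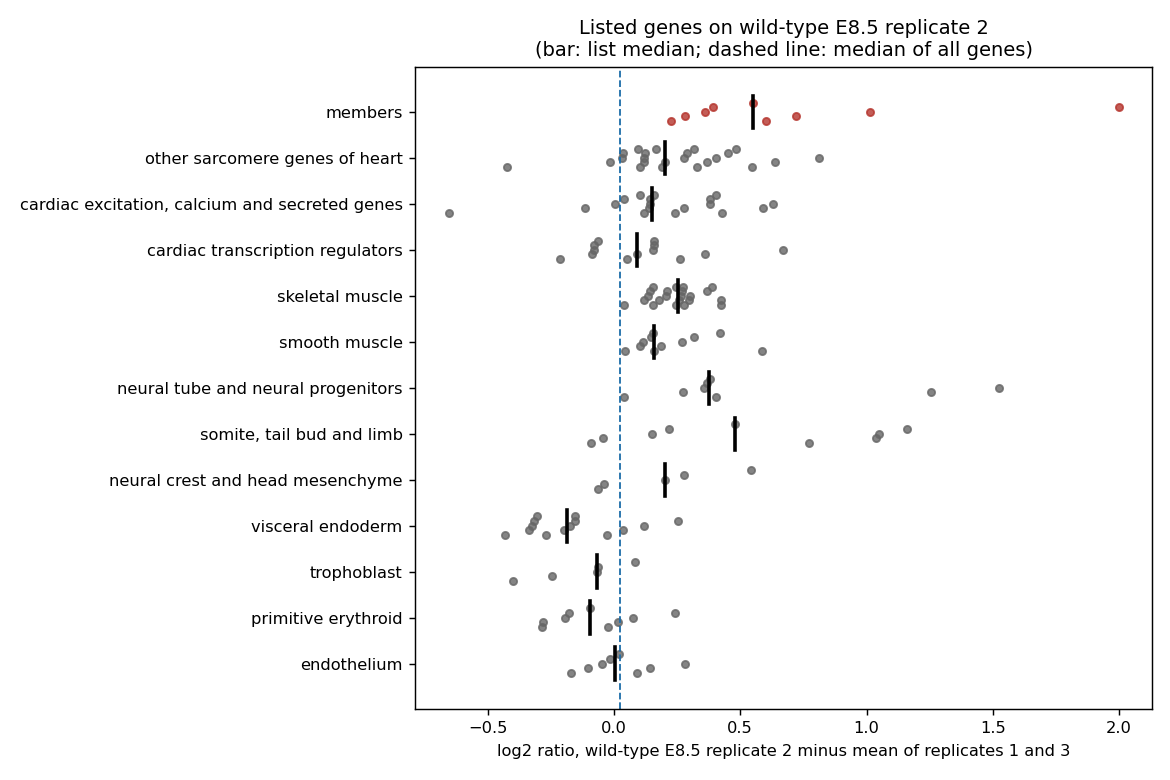
Difference in log2 ratio of wild-type E8.5 replicate 2 from the mean of wild-type E8.5 replicates 1 and 3 for every measured gene of 13 lists; points are genes, black bars are list medians and the dashed line is the median of all genes (0.02). The members lie from 0.23 to 2.00 and the visceral endoderm list has its median at -0.19.

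The ratios of the members varied together mainly through that array, which follows from their choice for standing high on it. Over all 12 arrays the median Pearson correlation of the 36 pairs of measured members was 0.67, and 35 of the pairs were above 0. Without wild-type E8.5 replicate 2 the median was 0.31, and 25 pairs were above 0. No median over pairs of other genes is given, so nothing is read from that value. On the 11 arrays Tnnt2 and Myl4 kept r = 0.81 and Myl7 and Myh6 kept r = 0.78, while Actc1 and Actn2 stood at -0.72. All these values share the reference, the dyes and the normalization of each array.

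The genes most like the mean of the members were found by the same correlation. Over 12 arrays the highest were Ccnd2, a D-type cyclin, with r = 0.976, Sall3 with 0.971 and Aldh1a2 with 0.965, followed by Sobp, Pcbp4, Vangl2, Mbtd1, Pgam1, Elavl2 and Synpo2l, down to 0.939. All 10 were higher on replicate 2 than the mean of replicates 1 and 3, by 0.45 to 1.05, which follows from the choice, since the mean of the members is itself highest there. Over the 11 arrays without replicate 2 the highest was Srcap with r = 0.946, and Skap1, Igsf21 and Exosc2 were also among the leading genes; none of these 4 was among the former 10.

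The mutant was compared with the wild type first at E9.5, where no wild-type E8.5 array enters the difference. No member passed the test (limma with Benjamini-Hochberg adjustment over all genes, adjusted p under 0.05), against 274 of 13892 genes (1.97%). At an unadjusted p under 0.05 there were 2 members, in opposite directions. Tnni1 was lower in the mutant by 0.25 ± 0.08 on the log2 scale (adjusted p = 0.177), the groups did not overlap, and all 3 scans gave a negative difference; its second probe gave -0.16. Tnnc1 differed by 0.24 ± 0.11 (limma, adjusted p = 0.376) with overlapping groups, and was higher in the mutant in all 3 scans. Here and below, the share of all genes with groups that did not overlap was not counted. Nothing is therefore read from overlap in any comparison.

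The other 7 members differed between the genotypes at E9.5 by -0.02 to 0.05. The median over the 9 was 0.03 and that over all genes was 0.00. For Myl7 the difference was 0.04, with a 95% interval of -0.79 to 0.88 that is wide because the shared estimate of spread includes wild-type E8.5 replicate 2. For Actn2 the interval was -0.12 to 0.21 and for Myl4 it was -0.32 to 0.29. These intervals leave room for modest differences in either direction.

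At E8.5 the comparison was tested without wild-type replicate 2, so 2 wild-type arrays were set against 3 mutant ones. No member passed, against 203 genes (1.46%), and 2 members had an unadjusted p under 0.05. Myl7 was lower in the mutant by 0.67 ± 0.19 (limma, adjusted p = 0.118), with groups that did not overlap. The 2 scans with both genotypes gave -0.15 and -1.10, so the size rested on wild-type replicate 3: without it the difference was -0.16 (adjusted p = 0.865), and without replicate 1 it was -1.19 (adjusted p = 0.000104). Each of these fits leaves 1 wild-type E8.5 array, which is assumed to vary like the arrays of the other groups, so their p-values do not measure the spread of wild-type E8.5. Myh7 differed by 0.25 ± 0.11 (limma, adjusted p = 0.372) in the other direction, higher in the mutant. Groups did not overlap for Myh7, Tnni1 and Actc1 either, at differences of 0.25, -0.13 and -0.07.

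The array left out decided the direction of several members at E8.5. With it, which is a description and not a test, the mutant minus wild-type difference was -1.34 for Myl7, and the mean of wild-type E8.5 was -1.32 ± 1.26 (SD, n = 3) against -2.66 ± 0.08 (SD, n = 3) in the mutant. The difference was -0.36 for Myh6, -0.21 for Myl4, -0.14 for Tnnt2 and -0.09 for Myh7 with that array, and -0.16, 0.03, 0.04 and 0.25 without it. For Tnni1, Actc1, Tnnc1 and Actn2 it was -0.23, -0.20, -0.14 and 0.00 with that array. Without it these values were -0.13, -0.07, -0.02 and 0.08. Myl4, Tnnt2 and Myh7 thus changed sign, and none of the 3 passed the test without it.

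Between the stages, the mutant was compared with itself on all 12 arrays. No member passed, against 3003 genes (21.6%). Myl7 lay lower at E9.5 by 0.35 ± 0.39 (limma, adjusted p = 0.592). Its 3 arrays at E9.5 were all below its 3 arrays at E8.5, and the scans gave -0.49, -0.20 and -0.36. Tnnt2 gave -0.24 ± 0.12 (adjusted p = 0.191) and Myh7 -0.27 ± 0.20 (adjusted p = 0.393), both with groups that did not overlap, and Tnni1 gave -0.20 ± 0.08 (adjusted p = 0.110). The median over the 9 members was -0.12 and that over all genes was -0.01.

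The calls depended on which arrays outside the comparison entered the estimate of spread. Without wild-type E8.5 replicate 2, Tnnt2 (limma, adjusted p = 0.0300) and Tnni1 (adjusted p = 0.0454) passed at the same differences, and Myl7 did not (adjusted p = 0.163). In that fit 3367 of 13892 genes passed. With the 6 mutant arrays fitted alone, Myl7 (limma, adjusted p = 0.00555), Tnnt2 (adjusted p = 0.0309) and Myh7 (adjusted p = 0.0489) passed and Tnni1 did not. There 3055 of 13894 genes passed. Without mutant E9.5 replicate 3, Tnni1 passed (limma, adjusted p = 0.0450), among 2179 of 13893 genes.

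In the wild type, E9.5 was compared with E8.5 without replicate 2. Myl7 fell by 1.06 ± 0.19 on the log2 scale (limma, adjusted p = 0.00156), a 2.09-fold lower ratio, and was the only member called in that fit, against 2771 genes (19.9%). The fit pools the spread over the 4 groups. For Myl7 the SD was 0.73 on the 2 wild-type E8.5 arrays and 0.03 to 0.12 in the other groups. Its p-value thus does not measure the spread of wild-type E8.5. The 2 E8.5 arrays of Myl7 lay above all 3 at E9.5, and the 2 scans with both stages gave -0.58 and -1.55. Of the 23 other settings run, all kept the call of Myl7, but 1 of them restored replicate 2. Myl7 was picked for its level on that array, so that setting is no test of it. The size moved with the 2 E8.5 arrays: the difference was -0.55 without replicate 3 and -1.58 without replicate 1. These 2 of the 23 settings leave 1 wild-type E8.5 array, whose spread is then taken from the other groups. With replicate 2 included the difference was -1.73.

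The other members differed less between the stages of the wild type, and none passed in the fit without a block. With the replicate number, which is also the scan, as a block, Tnnt2 (-0.27, limma, adjusted p = 0.00752) and Myh6 (-0.26, adjusted p = 0.0212) passed beside Myl7 (-1.06, adjusted p = 0.000889). With that block 2957 of 13892 genes passed. A second Myh6 probe gave -0.05 ± 0.08 for this comparison without the block, so the fall of Myh6 depended on the probe. Without the block, Tnnt2 gave -0.23 ± 0.08 (limma, adjusted p = 0.0611), Tnnc1 -0.23 ± 0.09 (adjusted p = 0.106) and Myh6 -0.23 ± 0.10 (adjusted p = 0.114), each with groups that did not overlap. The groups of Tnni1 did not overlap either, at -0.08. Tnnt2 passed without wild-type E9.5 replicate 2 (limma, adjusted p = 0.0272) or without mutant E8.5 replicate 1 (adjusted p = 0.0411). In these fits 2247 of 13893 and 2745 of 13892 genes passed. With wild-type E8.5 replicate 3 as the single array of its group, and a spread taken from the other groups, Myh6 passed (adjusted p = 0.0322). Myl4, Tnni1, Actc1, Actn2 and Myh7 lay between -0.08 and 0.07. The median over the 9 was -0.08 against 0.00 over all genes. With wild-type E8.5 replicate 2 included, which is no test, the members other than Myl7 lay between -0.43 and -0.06.

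Whether the effect of the mutation differed between stages was tested without wild-type E8.5 replicate 2. No member passed, and 1 gene of all did (0.0072%), Hspa1a, a heat shock protein. For Myl7 the difference of the 2 mutant effects was 0.72 ± 0.26 (limma, adjusted p = 0.646). It passed without wild-type E8.5 replicate 1 (1.23, adjusted p = 0.00147), where replicate 3 is the only wild-type E8.5 array and the spread comes from the other groups alone. The 2 scans that hold all 4 groups gave 0.09 and 1.20.

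**Figure D5:**
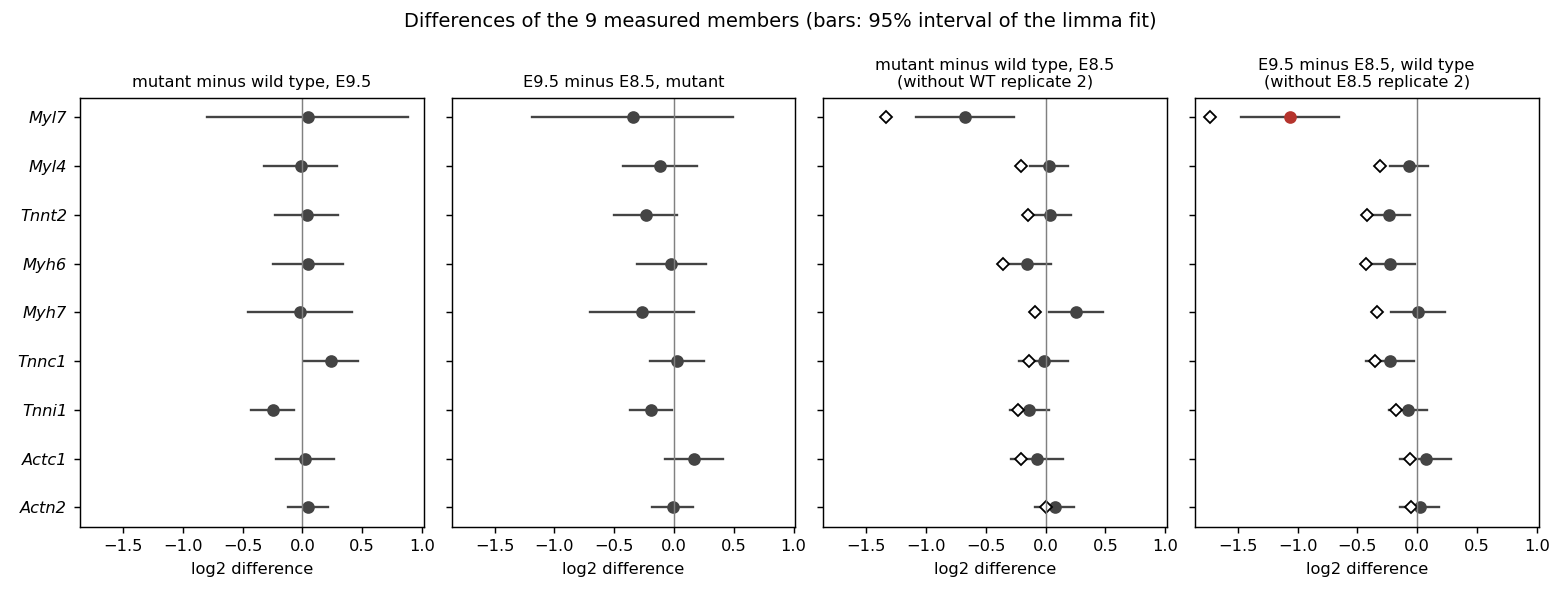
Log2 differences of the 9 measured members in 4 comparisons; filled points are the fitted differences, bars their 95% intervals from limma, red marks an adjusted p under 0.05, and open diamonds are the differences with wild-type E8.5 replicate 2 included, which are not tested. Myl7 in the wild type between stages is the one red point, at -1.06, and its open diamond lies at -1.73.

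Other genes of the heart lists that passed a test are described by list. Of all 13892 genes, 19.9% passed between stages for the wild type and 21.6% for the mutant. Between genotypes the shares were 1.97% at E9.5 and 1.46% at E8.5 without wild-type replicate 2. Whether any list held more calls than these shares was not tested, here or in the next paragraph, so the calls do not set a list apart. Of 23 other sarcomere genes, Fhl2, a LIM protein, rose by 0.30 ± 0.07 between stages in the wild type (limma, adjusted p = 0.00508), and Tmod1, which caps actin filaments and is also made in red cells, fell by 0.47 ± 0.10 in the mutant (adjusted p = 0.00486). Of 18 excitation and calcium genes, Gja5 (0.46) and Slc8a1 (0.26) rose and Atp2a2 (-0.21) and Gja1 (-0.21) fell between stages in the wild type, and Trdn (-0.21) fell in the mutant. Gja1, a connexin, was lower in the mutant at E8.5 by 0.29 ± 0.06 (adjusted p = 0.0338).

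Of 13 transcription regulators, Hopx was higher in the mutant at E9.5 by 0.49 ± 0.10 (limma, adjusted p = 0.0149). Between stages Tbx2 rose in both genotypes (0.41 in the wild type, 0.31 in the mutant), Hey1 (-0.36) and Hopx (-0.37) fell in the wild type, and Hand1, a regulator of yolk sac and heart mesoderm, fell in the mutant (-0.36). None of 22 skeletal muscle genes passed in any of the 5 comparisons. Of 11 smooth muscle genes 4 rose between stages in each genotype: Myl9, Tagln and Tpm2 in both, with Actg2 in the wild type and Mylk in the mutant. Myl9, a smooth muscle regulatory light chain, rose by 0.79 ± 0.12 in the wild type (adjusted p = 0.000594), whereas Myl7, the cardiac one, fell.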

How the data were processed

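RNA of 12 yolk sac samples was measured on Agilent 2-colour arrays. The deposited per-array files hold unnormalized mean and background intensity values per spot, made, per the file headers, with Agilent Feature Extraction 9.5.1.1, and background-subtracted, dye-normalized processed signals with their log10 ratio of Cy5 over Cy3. Other columns hold, per the file headers, flags of 0 or 1. A further deposited table, of 19007 probes on all arrays, gives log2 ratios that the authors centred per probe. Per the file headers there were 3 scans, each with 1 array of every group, so scan and replicate number are the same. Deviations of same-numbered arrays from their group means correlated with r from -0.01 to 0.42, over 0.1 for 16 of 18 pairs and for all pairs in 4 of 6 pairs of groups, so a fit with the number as a block was also made.

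The members and lists were chosen with earlier results of these data known. In R 4.3.3 with limma 3.58.1, log2 ratios were made from normexp-corrected signals (offset of 50) and adjusted by loess within arrays, giving control spots a weight of 0. Spots marked as outliers, or over 20 units below background, were set to missing, and repeated spots were averaged. Probes were named through a RefSeq table (accession 23374, symbol 6733, older symbol 2919, unmatched 8148). The filter kept 20065 of 41174 probes, those whose Cy5 signal passed the background flag on every array of 1 group or more, and a gene was read from its probe with the highest mean intensity. Errors after ± are standard errors of the fit unless marked SD. Limma was fitted with a mean per group on 12 arrays, or on 11 without wild-type E8.5 replicate 2, as stated, with p-values adjusted by Benjamini-Hochberg. A call is an adjusted p under 0.05. How many of all genes had groups that did not overlap was not counted, so nothing is read from such groups. Precision is limited by the number of arrays. The fit was tested on simulated data. Named outside the members were listed genes that were called, up to 4 of each list by the difference of replicate 2, the 10 and 5 genes most correlated with the members (1 of which is not reported here), and genes at least 2-fold higher on replicate 2. Ttr, Mybpc3, the 4 neural genes found on replicate 2 alone, Arid1a and Hspa1a were added after their values were seen.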

Additional observations from a re-analysis of the deposited data

How the results depend on the processing

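In the wild type between stages the count of members called was 1. It was 2 with processed signals, 3 with Cy5 alone, 2 with the deposited table, 3 with array weights, and 1 to 2 leaving out single arrays. Restoring wild-type E8.5 replicate 2 gave 4, which is no test, since the members were picked for standing high on that array. In the mutant between stages the count was 0, and it was 1 with processed signals, 1 with Cy5 alone, 1 with the deposited table, 3 with only the groups of the comparison, and 0 to 2 leaving out single arrays. It ranged from 0 to 1 leaving out single arrays for the genotypes at E8.5 and for the difference between stages, and stayed 0 at E9.5. The causes were not tested. Replicate numbers equal scans. With the replicate number as a block (replicate block), 3 members were called in the wild type between stages and no other count of members changed. A separate slide block was not run. Replicate 2 minus replicates 1 and 3 changed sign for Actn2 (-0.056) with median centring. Over all settings, the genes called ranged from 26 to 372 for E9.5, 1756 to 3473 for the mutant between stages, 44 to 394 for E8.5, 619 to 3461 for the wild type between stages and 0 to 10 for the difference. Dim spots limit Myh6 and Nkx2-5.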
